A study of Mus musculus with 62 samples.

Results

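Hearts of mice 8 weeks after an injection of melanoma cells that cause cachexia (CAC) were compared with hearts of mock-injected mice (Con) of the same week, across all genes. Cachexia is a wasting of muscle and fat tissue seen with some tumours. The comparison takes the 7 CAC and the 5 Con libraries of week 8, chosen by their sample titles, which are 12 of the 62 heart libraries of the series. The series also holds mice injected with melanoma cells that do not cause cachexia (NCAC) and earlier weeks, and 3 more groups enter the last results below: CAC at week 6 (5 libraries), NCAC at week 8 (5 libraries) and Con at week 6 (5 libraries). All animals are described as female and 2 months old, and no transgene or other agent is named. The labels name the strain C57BL6/J whereas the design text names Ath/nude mice, a strain without T cells, so the host's immune state is given in conflicting ways. CAC and NCAC mice received different melanoma cells, and the labels do not name the cell lines, so an effect of cachexia and one of the cell line cannot be told apart between these groups. The labels' protocol also speaks of a time point of another tumour model, so it may have been written for another experiment. RNA came from the heart, with no part of the heart stated, and each title carries its own heart number. The samples are called biological replicates, and p-values are set against the spread from heart to heart.

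The heart beats by burning fatty acids, and its muscle cells are filled with sarcomeres, the contractile units of myosin and actin filaments, and with mitochondria. In wasting disease cytokines of the interleukin-6 family can act on distant organs through the transcription factor STAT3, which in the liver switches on the acute phase, the release of protective plasma proteins, and glucocorticoid hormones released under stress act on many of the same genes. In skeletal muscle, wasting is linked to the ubiquitin ligases Fbxo32 (atrogin-1) and Trim63 (MuRF1), which mark muscle proteins for breakdown.

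Levels were deposited as TPM values, which are corrected for transcript length and sum to the same total in each library. They hold no read depth, so precision is set by the number of libraries. TPM was rescaled over the 12 libraries by the median of ratios, because as deposited the median of all genes lay 0.19 higher in CAC on the log2 scale, against 0.01 after rescaling. TPM below means rescaled TPM unless deposited TPM is named. CAC levels are given for the lowest, the median and the highest of the 7 libraries, and Con levels for replicates 1 to 5 in turn. Changes are CAC minus Con in log2(TPM + 1), given with limma's standard error (SE). The added 1 makes the changes of genes near or below 1 TPM look smaller than they are. Genes with a Benjamini-Hochberg adjusted p under 0.05 over all genes tested are called, and only these are said to have risen or fallen. Bulk hearts give no count of cells, so fewer cells of a type and less RNA per cell cannot be told apart.

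CAC replicate 3 (heart 23) stood apart. On the first principal component, which held 65.9% of the variance, it lay at -13.5, while the other 6 CAC hearts lay between 21.9 and 32 and the Con hearts between -33 and -25.8. Its haemoglobin transcripts held 3.29% of deposited TPM, against 0.0165 to 0.661% in the other CAC hearts and 0.178 to 0.454% in Con. Mitochondrially encoded transcripts held 50.1 to 55.7% of deposited TPM in CAC and 52.9 to 61.1% in Con. Where leaving out replicate 3 ended a call or moved the fold change of a named gene by over 1.5 times, the value without it is given. Ventricular markers were high in all 12 hearts, but the atrial markers Myl7, Myl4, Sln and Bmp10 were near 0, the highest being 0.144 and 0.353 TPM for Myl7, 0.576 and 0.755 TPM for Myl4, 0.521 and 0.609 TPM for Sln and 0.00996 and 0.058 TPM for Bmp10 in CAC and in Con. The whole atrial list summed to 65.2 to 1466 TPM in CAC and 95.7 to 297 TPM in Con, and its 2 tested members, Nppa and Dkk3, rose by 1.78 and 0.88.

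Of 12109 genes tested, 5406 were called (44.6%), 2786 higher in CAC (23%) and 2620 lower (21.6%). Most changes were small: the median called rise was 0.39 and the median called fall -0.37. Large changes were mostly rises, with 373 genes up and 154 down by over 1 on the log2 scale, and 78 up and 8 down by over 2. All 7 CAC hearts lay above all 5 Con hearts in 1308 genes (10.8%) and below them in 1070 (8.84%). Without replicate 3, 6260 genes were called (51.7%, 3204 higher and 3056 lower), and 5340 of the 5406 kept their call and direction. On TPM as deposited the split was 4902 higher and 995 lower, so counts of small falls depend on the rescaling. Each list count below is to be read against these shares. Genes were tested if they reached 1 TPM in 5 or more hearts, so a gene could enter a list count through the group where it is high. The lists were written with earlier results of these data known, and genes named outside the naming rule are listed with the processing.

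Secreted proteins of the acute phase were among the largest rises. Serpina3n, a protease inhibitor (chr12:104406729-104414329, plus strand, GENCODE M21 on mm10), stood at 61.5, 1727 and 2632 TPM in CAC, against 3.03, 1.94, 2.04, 2.46 and 3.9 TPM in Con. Every CAC heart was above every Con heart, but replicate 3, at 61.5 TPM, was far below the other 6, which began at 1476 TPM. Its change was 8.35 (SE 0.77, limma adjusted p = 2.43e-05), and 9.06 without replicate 3. Its relatives Serpina3m, Serpina3i and Serpina3h rose by 4.44 (5.09 without replicate 3), 4.32 and 4.23, and since these copies resemble each other, reads may be split between them.

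Lcn2, an iron-binding protein of innate defence (chr2:32384633-32388252, minus strand), stood at 3.61, 249 and 316 TPM in CAC, against 1.55, 0.96, 0.631, 0.633 and 0.897 TPM in Con. The groups did not overlap, and the lowest CAC value was again replicate 3. Its change was 6.21 (SE 0.89, limma adjusted p = 0.000238), and 7.05 without replicate 3. Saa3, a serum amyloid A made outside the liver, stood at 1.37, 61.4 and 119 TPM in CAC, against 0.392, 0.176, 0.445, 0.276 and 0 TPM in Con, a change of 4.75 (SE 0.83, limma adjusted p = 0.000727), and 5.40 without replicate 3. Lrg1, a secreted glycoprotein of the acute phase, rose by 3.85 and Hp, which binds free haemoglobin, by 3.77. Apod, a lipid-carrying protein, rose by 3.71. Clca3a1, of the chloride channel accessory family, rose by 4.21 and Mmp3, a protease of the matrix, by 4.06.

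In the acute phase and STAT3 list, 24 of 26 tested members rose and 0 fell (median log2 fold change 1.60; 25 and 0 on deposited TPM), beside a median of 0.01 over all genes tested. The other 13 of its 39 listed members were too low for a test. Members under 1 TPM in every Con heart, such as Saa3 and Serpina3c, entered the test through the CAC hearts alone, so the count is a description. Socs3, the feedback inhibitor of cytokine receptors that STAT3 induces (chr11:117966079-117970047, minus strand), stood at 10.3, 54.8 and 96.1 TPM in CAC, against 3.05, 3.37, 2.47, 2.52 and 2.48 TPM in Con. All CAC hearts, replicate 3 being the lowest, were above all Con hearts, and the change was 3.74 (SE 0.41, limma adjusted p = 5.82e-05). Osmr, the receptor of oncostatin M, averaged 20.3 ± 5.41 TPM over the 7 CAC hearts and 3.07 ± 0.457 TPM over the 5 Con hearts (± SD), a change of 2.34 (SE 0.21, limma adjusted p = 2.43e-05). Stat3 itself rose by 0.86, Cebpd, a transcription factor of the acute phase, by 3.03, Il1r1, the receptor of interleukin 1, by 1.33, and Il6st, the shared signalling chain of the interleukin-6 receptor family, by 0.24. The ligand genes Il6 and Osm were at 0.035 to 0.38 TPM and 0.107 to 0.293 TPM in CAC, against 0 to 0.0215 TPM and 0.0208 to 0.144 TPM in Con, below the level needed for a test.

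Of the metallothioneins, small proteins that bind zinc and copper, Mt1 and Mt2 rose, and Mt3 did not pass the test (0.31, limma adjusted p = 0.215). Mt2 (chr8:94172664-94173568, plus strand) stood at 217, 1843 and 2594 TPM in CAC, against 13.5, 15, 16.3, 18.6 and 51.7 TPM in Con. Mt1, its neighbour on the same strand (chr8:94179082-94180327, plus strand), stood at 475, 2559 and 3419 TPM in CAC, against 138, 148, 153, 164 and 283 TPM in Con. For both genes the groups did not overlap and the lowest CAC heart was replicate 3. The changes were 5.99 (SE 0.58, limma adjusted p = 2.95e-05) for Mt2 and 3.54 (SE 0.42, limma adjusted p = 7.79e-05) for Mt1. In the whole metallothionein, zinc and iron list, 9 of 19 tested members rose and 3 fell (median log2 fold change 0.31; 14 and 2 on deposited TPM). The zinc importers Slc39a14 and Slc39a1 rose by 1.02 and 0.75. Of the iron genes, Hamp, the hormone hepcidin that lowers iron export, stood at 0.237, 6.49 and 19.6 TPM in CAC, against 0.89, 0, 0, 0.596 and 2.81 TPM in Con. The groups overlapped, and it rose by 2.00 (SE 0.59, limma adjusted p = 0.015). Slc40a1, the iron exporter, fell by 1.00 (limma adjusted p = 0.00152). Tfrc, the transferrin receptor for iron uptake, fell by 1.53, but replicate 3 held 70.9 TPM beside a highest value of 21.1 TPM among the other CAC hearts and 22.5 to 57.4 TPM in Con, and the call was lost when any of 9 single hearts, none of them replicate 3, was left out. Trf, transferrin itself, rose by 1.57, and Hmox1, which frees iron from haem, by 1.95.

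The promoters of Socs3 and of the metallothionein pair are printed because STAT3 is known to switch on Socs3, and zinc-activated factors to switch on the metallothioneins, through short DNA motifs. They are the 250 bases before the start in RefSeq (GRCm38.p6), 5′ to 3′, with capitals marking matches, on either strand, to TTCNNNGAA, the motif of STAT factors, in Socs3, and to TGCACNC or TGCGCNC, the core of metal response elements, in Mt2 and Mt1. RefSeq and GENCODE place the starts differently: the Socs3 window lies inside the gene as GENCODE gives it, and the Mt1 window runs a few bases into it.
Socs3 (chr11:117969367-117969616, minus strand): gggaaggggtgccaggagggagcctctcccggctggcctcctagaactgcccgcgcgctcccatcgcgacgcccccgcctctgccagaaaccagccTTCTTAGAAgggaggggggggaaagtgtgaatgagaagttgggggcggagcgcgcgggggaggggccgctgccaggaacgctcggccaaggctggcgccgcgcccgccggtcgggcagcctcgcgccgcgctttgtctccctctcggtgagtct
Mt2 (chr8:94172368-94172617, plus strand): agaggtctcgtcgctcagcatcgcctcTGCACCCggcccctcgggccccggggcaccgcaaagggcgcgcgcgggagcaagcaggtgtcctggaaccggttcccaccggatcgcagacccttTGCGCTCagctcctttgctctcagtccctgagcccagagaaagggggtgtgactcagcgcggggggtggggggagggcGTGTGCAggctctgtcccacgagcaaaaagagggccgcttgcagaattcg
Mt1 (chr8:94178839-94179088, plus strand): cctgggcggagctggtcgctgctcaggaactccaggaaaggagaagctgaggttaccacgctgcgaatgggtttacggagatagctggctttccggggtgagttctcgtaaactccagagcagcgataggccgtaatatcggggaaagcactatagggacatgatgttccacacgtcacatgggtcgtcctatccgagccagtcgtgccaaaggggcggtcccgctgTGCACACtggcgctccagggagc

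Every printed match stands apart from the others. The Socs3 match begins 154 bases before the start. Mt2 has 3 matches, at 223, 128 and 50 bases before the start, and Mt1 has 1, at 23. Of all 32851 promoters in the table, 7.02% hold the STAT motif, 21.4% at least 1 metal core and 1.26% at least 3, the last being 2.65% among tested genes. Among genes with a promoter in the table, the STAT motif was in 16.1% (9 of 56) of those that rose by over 2 on the log2 scale, in 8.75% of 2045 that rose, in 6.54% of 1956 that fell and in 7.29% of 9121 tested. The glucocorticoid receptor motif ACANNNTGT was in 14.3% (8 of 56), 4.99%, 4.04% and 4.34% of the same sets. The metal core was in 17.9% (10 of 56), 30.9%, 38.3% and 34.6% of them. Serpina3n and Lcn2 have no STAT match in this window, and the Lcn2 window (chr2:32387740-32387989, minus strand) also lies inside the gene as GENCODE gives it. The shares are descriptions of these windows, and binding was not measured.

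Glucocorticoid target genes were mostly higher: in their list 15 of 21 tested members rose and 1 fell (median log2 fold change 1.08; 19 and 1 on deposited TPM). The fall was in Nr3c1, the gene of the glucocorticoid receptor itself, at -0.47 (limma adjusted p = 0.00477). Of the rises, Cebpd, Lcn2, Mt1 and Mt2 also stand in the lists above. Hsd11b1, which regenerates active glucocorticoid inside cells, stood at 6.45, 19.4 and 29.7 TPM in CAC, against 2.63, 3.21, 3.48, 2.77 and 4.75 TPM in Con. The groups did not overlap, and the change was 2.14 (SE 0.28, limma adjusted p = 0.000132). Fkbp5, a chaperone of the glucocorticoid receptor, stood at 5.61, 35.4 and 52.8 TPM in CAC, against 2.91, 3.19, 3.57, 4.82 and 7.49 TPM in Con, where replicate 3, at 5.61 TPM, lay inside the Con range and the other 6 hearts above it. The change was 2.49 (SE 0.44, limma adjusted p = 0.000858). The stress-responsive genes Ddit4, Tsc22d3 and Zbtb16 rose by 1.90, 0.95 and 1.55. Sgk1, a salt-regulating kinase, and Klf9 changed by 0.30 and 0.24 with limma adjusted p of 0.0828 and 0.35.

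Many immediate early genes, which respond to stimuli within minutes, were called higher. In their list 12 of 23 tested members rose and 0 fell (median log2 fold change 0.71; 16 and 0 on deposited TPM). Junb rose by 2.16, Myc, a driver of growth, by 1.97, Maff by 1.11 and Ier3 by 1.21, all with limma adjusted p of 0.000976 or below. Egr1 did not pass the test (-0.03, limma adjusted p = 0.909).

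Complement, the plasma proteins that coat microbes and debris, rose almost as a whole. Of its list 20 of 21 tested members rose and 0 fell (median log2 fold change 1.45; 20 and 0 on deposited TPM). Among them C6, at 0.121 to 0.452 TPM in Con, was tested only through its level in CAC. C4b, a component of the classical pathway, stood at 25.8, 80.5 and 87.5 TPM in CAC, against 4.52, 3, 4.51, 3.47 and 7.12 TPM in Con, with the groups apart and a change of 3.66 (SE 0.28, limma adjusted p = 1.28e-05). Clu, clusterin, a secreted chaperone and complement inhibitor, stood at 430.3, 1480 and 1654 TPM in CAC, against 163, 108, 117, 143 and 171 TPM in Con, and its lowest CAC heart, replicate 3, was above every Con heart. The change was 3.16 (SE 0.29, limma adjusted p = 2.43e-05). C3, the shared centre of all complement pathways, averaged 244 ± 83.8 TPM over the 7 CAC hearts and 36.6 ± 8.88 TPM over the 5 Con hearts (± SD), a change of 2.63 (SE 0.27, limma adjusted p = 4.42e-05). C7, of the membrane pore, rose by 2.56. C1qa, of the initiating complex made by macrophages, rose by 1.46 and Serping1, the inhibitor of the first step, by 1.37.

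Chemokines, which guide white blood cells, moved in both directions. In their list 9 of 21 tested members rose and 2 fell (median log2 fold change 0.34; 10 and 2 on deposited TPM). Ccl8, a monocyte attractant, stood at 35.3, 125 and 315 TPM in CAC, against 2.75, 0.821, 2.04, 1.15 and 2.66 TPM in Con, with the groups apart and a change of 5.42 (SE 0.50, limma adjusted p = 2.43e-05). Ccl6, Ccl9 and the lymphatic chemokine Ccl21a rose by 2.85, 2.29 and 0.88, and Cxcl13, the B cell attractant, by 3.73. Ccl2 and Cxcl1, typical of acute inflammation, had limma adjusted p of 0.43 and 0.275 at changes of -0.38 and 0.34. Cxcr4, the receptor of Cxcl12, fell by 1.08.

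Markers of macrophages and monocytes were higher as a group. Of 14 markers tested 13 rose and 0 fell, and their summed level was 582 to 958 TPM in CAC and 271 to 398 TPM in Con. Mrc1, the mannose receptor, stood at 15.7, 34.7 and 40.7 TPM in CAC, against 7.48, 6.29, 6.45, 6.14 and 7.66 TPM in Con, without overlap, a change of 2.06 (SE 0.18, limma adjusted p = 2.29e-05). Cd163, the haemoglobin scavenger receptor, rose by 2.35 and F13a1 by 2.15. Of macrophage genes that are not in the marker list, Vsig4, a complement receptor, rose by 2.55 and Gas6, a ligand for uptake of dying cells, by 1.43. Csf1r, the growth factor receptor of all macrophages, rose by 0.85 and Lyz2 by 0.89. Retnla, a marker of alternatively activated macrophages, fell, at 0.668, 1.12 and 13.4 TPM in CAC, against 30.3, 15.3, 11.1, 17.1 and 31.1 TPM in Con, where replicate 3, at 13.4 TPM, lay inside the Con range. Its change was -2.78 (SE 0.49, limma adjusted p = 0.000806).

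Of 10 neutrophil markers 5 were tested and all 5 rose, the summed level being 16.7 to 49.2 TPM in CAC and 7.98 to 21.5 TPM in Con, with 4 markers under 1 TPM in all 12 hearts. Without replicate 3, 5 rose and 0 fell. Retnlg rose by 1.30, Csf3r, the receptor for the neutrophil growth factor, by 0.68 and S100a9 by 0.94. Neutrophils also make Lcn2. Replicate 3 had the highest neutrophil sum, 49.2 TPM, and the lowest Lcn2 of the CAC hearts. Which cells made the Lcn2 transcripts was not tested. T cell markers summed to 0.521 to 1.23 TPM in CAC and 0.582 to 1.62 TPM in Con and none was tested. NK cell markers summed to 0.345 to 1.21 TPM in CAC and 2.31 to 4.5 TPM in Con, without overlap, again too low for a test. B cell markers were lower, Igkc by 1.17 and Ighm by 0.77, both with overlapping groups, and the call of Ighm was lost without Con replicate 1 or 2.

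**Figure D1:**
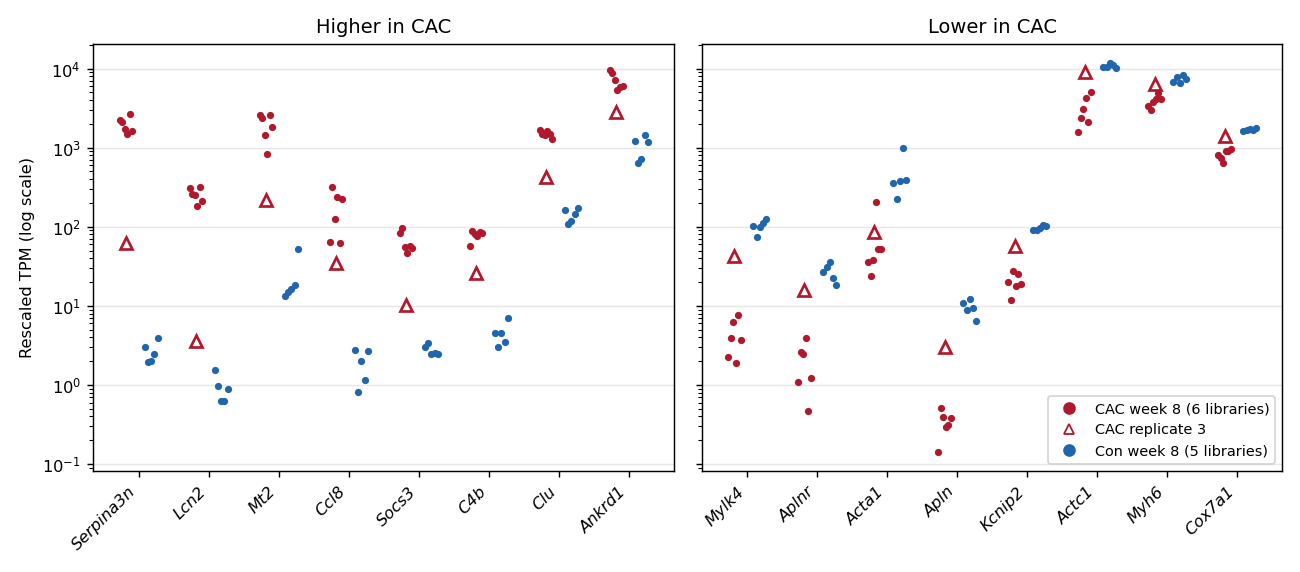
Rescaled TPM, on a log scale, of 8 genes higher in CAC (left panel) and 8 genes lower in CAC (right panel) in each heart of week 8. Red circles are 6 CAC hearts, the open triangle is CAC replicate 3 and blue circles are the 5 Con hearts. The triangle lies between the other CAC hearts and Con for 15 of the 16 genes, and within the CAC hearts for Acta1.

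The sarcomere moved the other way. In its list 1 of 33 tested members rose and 24 fell (median log2 fold change -0.42; 4 and 13 on deposited TPM), so the count of small falls depends on the scaling. Summed over the list, the level was 27610 to 46260 TPM in CAC, the highest being replicate 3 and the other 6 reaching no more than 34796 TPM, and 45939 to 51972 TPM in Con. Mylk4, a myosin light chain kinase of striated muscle (chr13:32700834-32783954, minus strand), had the largest fall of all genes tested. It stood at 1.92, 3.97 and 42.5 TPM in CAC, against 102, 75.2, 99, 111 and 127 TPM in Con. No CAC heart reached a Con heart, and the highest CAC value was replicate 3. The change was -3.93 (SE 0.54, limma adjusted p = 0.000184), and -4.38 without that heart.

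Both striated actins fell. Acta1, the skeletal form that hearts also make, stood at 23.6, 51.9 and 208 TPM in CAC, against 360.3, 225, 382, 998 and 394 TPM in Con, without overlap, a change of -2.88 (SE 0.48, limma adjusted p = 0.000556). Actc1, the main cardiac actin, stood at 1578, 3127 and 9045 TPM in CAC, against 10536, 10362, 11618, 10943 and 10188 TPM in Con, with replicate 3 highest and just under the lowest Con heart, a change of -1.67 (SE 0.35, limma adjusted p = 0.00221). Actins are nearly identical in coding sequence, so single members are uncertain. Smooth muscle actin Acta2 fell by 1.13, with overlap.

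Myh6, the fast adult ventricular myosin of the mouse (chr14:54941921-54966927, minus strand), stood at 3008, 4134 and 6312 TPM in CAC, against 6759, 7725, 6633, 8247 and 7343 TPM in Con. The groups did not overlap and the change was -0.82 (SE 0.15, limma adjusted p = 0.00114). Myh7, the slow fetal form, stood at 342, 493 and 612 TPM in CAC, against 338, 420.1, 348, 439.7 and 406 TPM in Con with overlapping groups, 0.29 (SE 0.14, limma adjusted p = 0.123), and without replicate 3 its change was 0.36 with limma adjusted p = 0.0265. The ratio of Myh7 to Myh6 was 0.0542 to 0.203 in CAC, from 0.0911 without replicate 3, and 0.0501 to 0.0553 in Con. Myh7b, a related myosin, fell by 1.54, Mybpc3, myosin-binding protein C, by 0.70, Ttn, the giant spring titin, by 0.44, Tmod1, which caps actin filaments, by 0.78, and Myl2, the ventricular light chain, by 0.55. Smyd1, a methyltransferase of myosin folding, fell by 0.70.

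The troponin genes moved in both directions. Tnnt2, the cardiac troponin T, was the single called rise of the sarcomere list, at 3811, 4129 and 4385 TPM in CAC, against 2898, 2989, 2524, 3162 and 2810 TPM in Con, without overlap, a change of 0.50 (SE 0.07, limma adjusted p = 0.000156). Tnnc1 and Tnni3, its partners in the same complex, fell by 0.37 and 0.35 (limma adjusted p = 0.00574 and 0.00542), with overlap and with limma adjusted p of 0.0991 and 0.153 on deposited TPM. Among isoforms of skeletal muscle, Mybpc2, the fast form of myosin-binding protein C, stood at 24.6, 68.9 and 104 TPM in CAC, against 10.9, 10.2, 11.3, 11.8 and 9.23 TPM in Con, without overlap, a rise of 2.49 (SE 0.26, limma adjusted p = 4.74e-05). Casq1, the skeletal calcium store protein, fell by 1.83 and Tnnt1, the slow skeletal troponin T, by 0.96.

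Genes known to respond to stretch and overload of the heart were split: 7 of 25 tested members rose and 7 fell (median log2 fold change -0.04; 8 and 6 on deposited TPM). Ankrd1, a stress-induced protein of the sarcomere's titin region (chr19:36111961-36120099, minus strand), stood at 2832, 5970 and 9655 TPM in CAC, against 1230, 636, 721, 1438 and 1194 TPM in Con. In TPM this was the largest rise of all genes tested, without overlap, and the change was 2.62 (SE 0.29, limma adjusted p = 6.05e-05). Nppb, the natriuretic peptide BNP, stood at 288, 491 and 715 TPM in CAC, against 188, 139, 128, 282 and 106 TPM in Con, and the lowest CAC heart lay just above the highest Con heart, a change of 1.58 (SE 0.27, limma adjusted p = 0.000632). Nppa, the peptide ANP, stood at 60.4, 1009 and 1460 TPM in CAC, against 293, 93.2, 156, 236 and 263 TPM in Con, a change of 1.78 (SE 0.66, limma adjusted p = 0.0427). CAC replicate 5 held 60.4 TPM of Nppa, below every Con heart, and the call was lost when any of the other 11 hearts was left out (limma adjusted p = 0.0545 without replicate 3). Of the genes that fell, Fhl2, an adaptor protein of the sarcomere, stood at 377, 639.7 and 1300 TPM in CAC, against 1420, 1552, 1644, 1586 and 1509 TPM in Con, a change of -1.26 (SE 0.23, limma adjusted p = 0.000892), and Nes, nestin, an intermediate filament, fell by 1.98. Actn1, the non-muscle alpha-actinin, rose by 0.80. Gdf15, a stress hormone that acts on appetite, averaged 2.85 ± 1.29 TPM over the 7 CAC hearts and 1 ± 0.356 TPM over the 5 Con hearts (± SD), a change of 0.88 (SE 0.24, limma adjusted p = 0.0112).

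Calcium release, storage and entry were lower for many genes. In that list 2 of 26 tested members rose and 11 fell (median log2 fold change -0.19; 5 and 7 on deposited TPM). Jph2, which holds the release sites at the cell membrane, stood at 98.2, 120.3 and 174 TPM in CAC, against 233, 249.9, 232, 253 and 229 TPM in Con, without overlap, a change of -0.86 (SE 0.13, limma adjusted p = 0.000376). Hrc, a calcium-binding protein of the store, fell by 0.87, Casq2, the cardiac calcium store protein, by 0.85 and Cacna2d1, a subunit of the calcium channel, by 0.62. Ryr2, the release channel, fell by 0.35 on rescaled TPM but not on deposited TPM (-0.14, limma adjusted p = 0.257). The calcium pump Atp2a2 and its inhibitor Pln did not pass the test (-0.16 and -0.13, limma adjusted p = 0.0669 and 0.156).

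Ion channels that shape the action potential were called lower more often than higher: 6 of 30 tested members rose and 14 fell (median log2 fold change -0.34; 7 and 11 on deposited TPM). Kcnip2, the subunit needed for the fast transient potassium current, stood at 11.9, 19.8 and 56.5 TPM in CAC, against 91, 90.3, 96, 106 and 101 TPM in Con, without overlap, and changed by -2.04 (SE 0.27, limma adjusted p = 0.00017). Its pore-forming partner Kcnd2 did not pass the test (-0.32, limma adjusted p = 0.112). Hcn2, a pacemaker channel, stood at 4.62, 5.34 and 13 TPM in CAC, against 19.6, 16.6, 17.8, 20.4 and 18.4 TPM in Con, a change of -1.48 (SE 0.19, limma adjusted p = 0.000133). Kcnk3 fell by 0.88, Kcnj11, the pore of the ATP-sensitive channel, by 0.71, and Kcnv2 by 1.08. Kcnq1, the slow repolarising channel, rose instead, at 29.2, 48 and 53 TPM in CAC, against 19, 20.8, 21, 18.7 and 20.5 TPM in Con, without overlap, a change of 1.09 (SE 0.13, limma adjusted p = 7.02e-05). Gja1, the gap junction protein connexin 43, rose by 0.48.

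In adrenergic signalling 6 of 29 tested members rose and 11 fell (median log2 fold change -0.14; 9 and 6 on deposited TPM). Adrb1, the main beta receptor of the heart, averaged 10 ± 1.72 TPM over the 7 CAC hearts and 13.4 ± 1.74 TPM over the 5 Con hearts (± SD), a fall of 0.39 (limma adjusted p = 0.0151). The alpha receptor Adra1a fell by 0.76, Pde4d, which breaks down cyclic AMP, by 0.47 and Rgs4, which shortens G protein signals, by 0.65. Gnai2, an inhibitory G protein, rose by 0.38, with overlap.

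Many genes of fuel burning were called lower, with fewer calls on deposited TPM. Of the genes of fatty acid uptake, storage and oxidation, 6 of 41 tested members rose and 26 fell (median log2 fold change -0.34; 9 and 16 on deposited TPM). Hadha, of the trifunctional protein that cleaves long chains, stood at 196, 230 and 335 TPM in CAC, against 451, 432, 409, 442 and 407 TPM in Con, without overlap, a change of -0.80 (SE 0.11, limma adjusted p = 0.000198). Cpt2 and Etfdh, which bring fatty acids into the mitochondrion and pass on their electrons, fell by 0.68 and 0.80, Acadm, the medium-chain dehydrogenase, by 0.75 and Fabp3, the abundant carrier protein of the cytosol, by 0.57. The uncoupling proteins moved in opposite directions. Ucp3, of muscle mitochondria, stood at 3.94, 5.27 and 18.5 TPM in CAC, against 40, 29, 18.2, 25.9 and 16.8 TPM in Con, a change of -1.77 (SE 0.33, limma adjusted p = 0.00123), with replicate 3, at 18.5 TPM, inside the Con range. Ucp2, common in immune cells, rose by 0.85, and the ratio of Ucp2 to Ucp3 was 0.853 to 5.51 in CAC and 0.216 to 0.685 in Con, without overlap. Lpl, which releases fatty acids from blood fats, rose by 0.40. Pdk4, which diverts pyruvate from oxidation, stood at 54, 85.4 and 127 TPM in CAC, against 311, 195, 89.6, 291 and 75.9 TPM in Con, with overlap, -0.91 (SE 0.35, limma adjusted p = 0.0495), and the call was lost on deposited TPM (limma adjusted p = 0.0909) and when any of 9 single hearts was left out.

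Transcripts for the oxidation of ketone bodies and branched-chain amino acids were mostly lower, without a called rise on rescaled TPM. In that list 0 of 21 tested members rose and 17 fell (median log2 fold change -0.43; 1 and 11 on deposited TPM). Oxct1, the enzyme that lets the heart use ketones, stood at 294, 345 and 635 TPM in CAC, against 684, 629, 649, 696 and 676 TPM in Con, where replicate 3, at 635 TPM, lay inside the Con range and the other 6 hearts below it. The change was -0.82 (SE 0.15, limma adjusted p = 0.000998). Ivd, of leucine breakdown, stood at 53.5, 63 and 79.2 TPM in CAC, against 112, 103, 93.2, 117 and 101 TPM in Con, without overlap, and Mccc2 and Pcca, carboxylases of the same routes, fell by 0.73 and 0.46.

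Of the citrate cycle and mitochondrial carriers, 1 of 28 tested members rose and 24 fell (median log2 fold change -0.33; 1 and 10 on deposited TPM). Ogdh, of the 2-oxoglutarate dehydrogenase complex, stood at 497, 537 and 724 TPM in CAC, against 967, 846, 868, 924 and 837 TPM in Con, without overlap, a change of -0.66 (SE 0.09, limma adjusted p = 0.000148). Sucla2, Got2 and the proton-driven NADPH source Nnt fell by 0.72, 0.52 and 0.71, and Cs, citrate synthase, by 0.62. For the nuclear genes of the respiratory chain, 0 of 47 tested members rose and 22 fell (median log2 fold change -0.20; 5 and 6 on deposited TPM), with 32 falls without replicate 3. Cox7a1, the muscle form of a cytochrome oxidase subunit, stood out by its size, at 648, 896 and 1406 TPM in CAC, against 1636, 1690, 1738, 1685 and 1787 TPM in Con, without overlap, a change of -0.94 (SE 0.15, limma adjusted p = 0.000382). Sdha and Uqcrc1, of complexes II and III, fell by 0.43 and 0.47. Of the 13 mitochondrially encoded genes, 9 fell and 0 rose, led by mt-Nd1 at -0.57, with overlapping groups, and on deposited TPM 6 fell.

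Of glucose uptake and glycolysis, 5 of 34 tested members rose and 18 fell (median log2 fold change -0.25; 8 and 10 on deposited TPM). Hk2, the insulin-responsive hexokinase that commits glucose to use, stood at 51.9, 59.1 and 92.5 TPM in CAC, against 114, 115, 116, 113 and 113 TPM in Con. The 5 Con hearts differed by no more than 3 TPM and all CAC hearts were below them, a change of -0.87 (SE 0.11, limma adjusted p = 0.000127). Slc2a4, the insulin-dependent glucose transporter, fell by 0.53, Pfkm, muscle phosphofructokinase, by 0.57 and Eno3, muscle enolase, by 0.81. Ldha, which makes lactate, rose by 0.40, Hk1, the housekeeping hexokinase, by 0.31 and Pfkfb3, which speeds glycolysis, by 1.03. Irs1, an insulin receptor substrate, stood at 2, 3.08 and 4.08 TPM in CAC, against 10, 11, 8.19, 9.69 and 9.45 TPM in Con, without overlap, a change of -1.41 (SE 0.12, limma adjusted p = 2.12e-05). Irs2, another such substrate, rose instead, with overlap, by 1.12 (SE 0.42, limma adjusted p = 0.0433). In the insulin and IGF list, 5 of 28 tested members rose and 8 fell (median log2 fold change 0.06; 14 and 2 on deposited TPM). The binding proteins Igfbp3 and Igfbp4 rose by 1.64 and 1.11.

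The muscle ubiquitin ligases did not rise as a group. Fbxo32 stood at 25.4, 51.7 and 87.1 TPM in CAC, against 54.9, 49.2, 41.2, 45.5 and 58.7 TPM in Con, with the Con hearts inside the CAC range, a change of -0.04 (SE 0.25, limma adjusted p = 0.904) that was 0.17 on deposited TPM. Trim63 stood at 97.4, 143 and 282 TPM in CAC, against 137, 149, 127, 137 and 135 TPM in Con, likewise with overlap, a change of 0.17 (SE 0.21, limma adjusted p = 0.519). In their list 5 of 20 tested members rose and 4 fell (median log2 fold change -0.04; 6 and 1 on deposited TPM). Fbxo31, a ubiquitin ligase subunit that acts on cell cycle proteins, rose by 1.40 and Cblb by 0.66, while Fbxo40, a muscle ligase, and Mdm2 fell by 0.47 and 0.32, Mdm2 not on deposited TPM (limma adjusted p = 0.249). Mstn, myostatin, a brake on muscle growth, averaged 0.389 TPM in CAC and 0.214 TPM in Con, too low for a test.

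Proteasome genes moved little. In their list 9 of 37 tested members rose and 3 fell (median log2 fold change 0.05; 25 and 0 on deposited TPM). Their count of rises thus depends on the scaling. Psmd13 and Psmc1 rose by 0.19 and 0.36, and Psmb2 fell by 0.20 on rescaled TPM but changed by 0.02 on deposited TPM. In autophagy and the lysosome 11 of 33 tested members rose and 6 fell (median log2 fold change 0.12; 17 and 2 on deposited TPM). Lamp2, of the lysosome membrane, rose by 0.70, the protease Ctsb by 0.48 and Map1lc3b, which coats the forming autophagosome, by 0.88. Pink1, which marks damaged mitochondria, stood at 261, 289 and 362 TPM in CAC, against 468, 489.6, 434, 470.2 and 440.5 TPM in Con, without overlap, a fall of 0.64, and the kinase Ulk1 that starts autophagy fell by 0.53.

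Ribosomal protein genes rose nearly as a whole, by small amounts. In their list 44 of 47 tested members rose and 0 fell (median log2 fold change 0.42; 44 and 0 on deposited TPM), and the count without replicate 3 was 44 and 0. Their summed level was 12689 to 16716 TPM in CAC and 10555 to 11804 TPM in Con. Rpl12 stood at 91.7, 114 and 134 TPM in CAC, against 67.3, 67.5, 67.5, 69.5 and 68.3 TPM in Con, without overlap, a change of 0.72 (SE 0.08, limma adjusted p = 5.5e-05). Rpl3 rose by 0.83 while Rpl3l, the form that replaces it in mature striated muscle, fell by 0.60, so that their ratio was 0.254 to 0.816 in CAC and 0.142 to 0.209 in Con, without overlap. Ribosomal protein genes have many processed copies in the genome, among which reads may be split.

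Of translation factors, 13 of 26 tested members rose and 4 fell (median log2 fold change 0.16; 21 and 0 on deposited TPM). Eif4ebp1, which blocks cap-dependent translation when it is not phosphorylated, rose by 1.02 and Eif1a by 1.06. Eef1a1, the general elongation factor, rose by 0.72 and Eef1a2, its adult muscle form, fell by 0.37, though not on deposited TPM (limma adjusted p = 0.109). In ribosome biogenesis 9 of 30 tested members rose and 3 fell (median log2 fold change 0.13; 19 and 0 on deposited TPM), with Npm1 up by 0.41 and Polr1a, the polymerase of ribosomal RNA, down by 0.32, though not on deposited TPM (limma adjusted p = 0.125). In the list of ATF4 targets, which respond to lack of amino acids, 10 of 26 tested members rose and 4 fell (median log2 fold change 0.07; 10 and 0 on deposited TPM). Slc3a2, a subunit of amino acid transporters, stood at 20.9, 48.4 and 54.5 TPM in CAC, against 15.9, 14.9, 15.7, 17.7 and 17 TPM in Con, without overlap, a change of 1.36 (SE 0.19, limma adjusted p = 0.000198), and Asns, asparagine synthetase, rose by 0.58. Of chaperones, 9 of 29 tested members rose and 6 fell (median log2 fold change 0.11; 15 and 2 on deposited TPM), with Dnajb4 up by 0.94, Hsph1 down by 0.82 and the mitochondrial Hspd1 down by 0.58.

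Gpx1, which removes peroxide with glutathione, shared the smallest limma adjusted p of all genes with Clec2d. It stood at 142, 153 and 162 TPM in CAC, against 84.8, 84.8, 79.9, 82.4 and 86.5 TPM in Con, narrow ranges far apart, with replicate 3 at 156 TPM, and changed by 0.85 (SE 0.05, limma adjusted p = 6.44e-07). In the antioxidant list 6 of 24 tested members rose and 7 fell (median log2 fold change -0.03; 9 and 3 on deposited TPM). Nqo1, a target of the stress factor Nrf2, rose by 0.86 and Gpx3, the secreted peroxidase, by 1.45. The mitochondrial enzymes Prdx3 and Sod2 fell by 0.40 and 0.72. In polyamine and NAD metabolism 7 of 22 tested members rose and 5 fell (median log2 fold change 0.11; 12 and 1 on deposited TPM). Nampt, the rate-limiting enzyme of NAD salvage, rose by 0.80, and Nmnat1, of the nuclear step, fell by 0.48.

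Matrix genes moved in both directions. In their list 14 of 40 tested members rose and 12 fell (median log2 fold change -0.24; 14 and 3 on deposited TPM). Dcn, decorin, a proteoglycan of fibroblasts, stood at 537, 891 and 1028 TPM in CAC, against 403, 375, 402, 386 and 421 TPM in Con, without overlap, a change of 1.10 (SE 0.13, limma adjusted p = 8.17e-05). Timp1, an inhibitor of matrix proteases, rose by 1.89 and Fbln1 by 0.66. The fibrillar collagen genes Col1a1 and Col3a1 stood at 11.7 to 32.5 TPM in CAC and 26.9 to 37.2 TPM in Con, and at 17.4 to 77.8 TPM in CAC and 45.8 to 73.2 TPM in Con, with overlap and limma adjusted p of 0.18 and 0.583 at changes of -0.38 and -0.25. Postn, periostin, a marker of activated fibroblasts, fell by 1.36, and Col4a1, of the basement membrane, fell by 0.58. Of 8 fibroblast markers 4 rose and 0 fell.

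Transcripts of signals between the vessel wall and the muscle fell in part. Aplnr, the receptor of apelin, stood at 0.471, 2.47 and 15.7 TPM in CAC, against 27.1, 30.9, 36.4, 22.8 and 18.6 TPM in Con, and its ligand Apln stood at 0.142, 0.383 and 3.04 TPM in CAC, against 10.9, 8.9, 12.3, 9.43 and 6.48 TPM in Con. For both genes the groups were apart and the highest CAC heart was replicate 3, and the changes were -2.96 (SE 0.48, limma adjusted p = 0.000469) for Aplnr and -2.74 (SE 0.27, limma adjusted p = 3.55e-05) for Apln. In the list of angiogenic and vasoactive factors 5 of 31 tested members rose and 11 fell (median log2 fold change -0.11; 9 and 9 on deposited TPM). Vegfb and Pdgfb fell by 0.62 and 0.51 and Vegfa by 0.48, while Ace, the angiotensin-converting enzyme, rose by 1.76, with overlap through replicate 3 (21 TPM). Of 8 endothelial markers 0 rose and 3 fell (Cdh5 by 0.67, Kdr by 1.10, Cd300lg by 0.28, the last not on deposited TPM, limma adjusted p = 0.543), and Pecam1 did not pass the test (-0.08, limma adjusted p = 0.419). Of 6 endocardial and lymphatic endothelial markers 3 rose and 1 fell (4 and 0 on deposited TPM). Lyve1, a marker of lymphatic endothelium and of some resident macrophages, rose by 1.70, Plvap by 1.59 and Vwf by 0.80. Prox1, a lymphatic marker, fell by 0.36, though not on deposited TPM.

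Of secreted Wnt, TGF-beta and BMP factors, 9 of 20 tested members rose and 6 fell (median log2 fold change 0.03; 10 and 2 on deposited TPM). Sfrp1, an inhibitor of Wnt signalling, stood at 12, 18.1 and 18.2 TPM in CAC, against 7.58, 6.71, 5.8, 5.76 and 6.12 TPM in Con, without overlap, a change of 1.19 (SE 0.11, limma adjusted p = 2.95e-05), and Bmper rose by 1.24, while Wnt5a and Ltbp1 fell by 0.95 and 0.58. Inhbb, the activin B subunit, averaged 3.36 ± 1.53 TPM over the 7 CAC hearts and 0.362 ± 0.0543 TPM over the 5 Con hearts (± SD), a rise of 1.58 (SE 0.25, limma adjusted p = 0.000427), and Tgfbr2, a TGF-beta receptor, rose by 1.42. Inhbb reached no more than 0.441 TPM in Con and was tested only through its level in CAC.

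Interferon response genes did not move together: 5 of 40 tested members rose and 9 fell (median log2 fold change -0.30; 8 and 6 on deposited TPM). The membrane proteins Ifitm1, Ifitm2 and Ifitm3 and Ifi27l2a rose by 2.30, 1.29, 0.86 and 1.92. The interferon-gamma GTPase Igtp stood at 9.38, 13 and 23.5 TPM in CAC, against 204, 13.5, 22.5, 17.9 and 95.4 TPM in Con, with Con replicates 1 and 5 far above the others and the 3 lower ones within the CAC range, and its call was lost when any of 7 single hearts was left out, Con replicates 1 and 5 among them. Gbp3, another GTPase, fell by 1.24. In the cell cycle list 4 of 23 tested members rose and 9 fell (median log2 fold change -0.02; 7 and 7 on deposited TPM). The cyclins Ccnd1 and Ccnd2 fell by 1.75 and 0.94 and the inhibitor Cdkn1c by 0.78, while Gadd45g rose by 1.52. Of the clock genes, 1 of 20 tested members rose and 2 fell (median log2 fold change 0.02; 3 and 2 on deposited TPM), and the calls of Nr1d1 (-1.54) and Per1 (0.93) were lost when any of 7 (Nr1d1) or 9 (Per1) single hearts was left out.

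Some of the largest changes belong to none of these groups. Plekhh1, a protein of the cell cortex, stood at 0.156, 0.524 and 1.52 TPM in CAC, against 5.45, 8, 5.71, 5.01 and 7.99 TPM in Con, without overlap, a change of -2.25 (SE 0.18, limma adjusted p = 1.43e-05). Nrep and Klhdc8a fell by 1.97 and 1.93, Lrtm1 by 1.83 and Efnb3, an ephrin ligand, by 1.82. Avp, the hormone vasopressin, was low in all hearts, at 0.798 to 4.86 TPM in CAC and 6.07 to 18 TPM in Con, a fall of 1.92. Of the largest rises in TPM not yet named, Neat1, a nuclear non-coding RNA, rose by 1.39 and Ptgds, prostaglandin D synthase, by 1.05, with overlap. Mb, myoglobin, stood at 9232 to 15169 TPM in CAC and 13425 to 15146 TPM in Con, with overlap, a fall of 0.44. Ckm and Ckmt2, the creatine kinases of muscle, fell by 0.90 and 0.52.

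Markers of other tissues were present at different levels. Erythroid markers, mostly haemoglobin, summed to 150.2 to 36955 TPM in CAC and 1980 to 4787 TPM in Con, the highest being replicate 3, and none was called with it, while Hba-a2, an alpha globin, fell by 2.96 without it (limma adjusted p = 0.00957). Skeletal muscle markers summed to 551 to 1196 TPM in CAC and 1427 to 2424 TPM in Con, with 6 of 8 under 1 TPM in all 12 hearts and the others being Acta1 and Ckm, which heart muscle also makes. Adipocyte markers summed to 1.08 to 25.8 TPM in CAC and 1.71 to 3.86 TPM in Con, and Cfd, Car3 and Adipoq rose by 1.92, 1.29 and 0.79, with overlap. Their part in the results was not tested. Of the melanocyte markers, Mlana stood at 1.09, 4.74 and 7.72 TPM in CAC, against 0.251, 0.15, 0.0759, 0.314 and 0.168 TPM in Con, without overlap, a rise of 2.03 (SE 0.31, limma adjusted p = 0.000341), whereas Dct fell by 1.17, and Tyr, Tyrp1 and Pmel reached no more than 0.00598, 0.015 and 0.413 TPM in CAC and 0, 0 and 0.2 TPM in Con. Mlana, under 1 TPM in every Con heart, was tested only through its level in CAC.

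**Figure D2:**
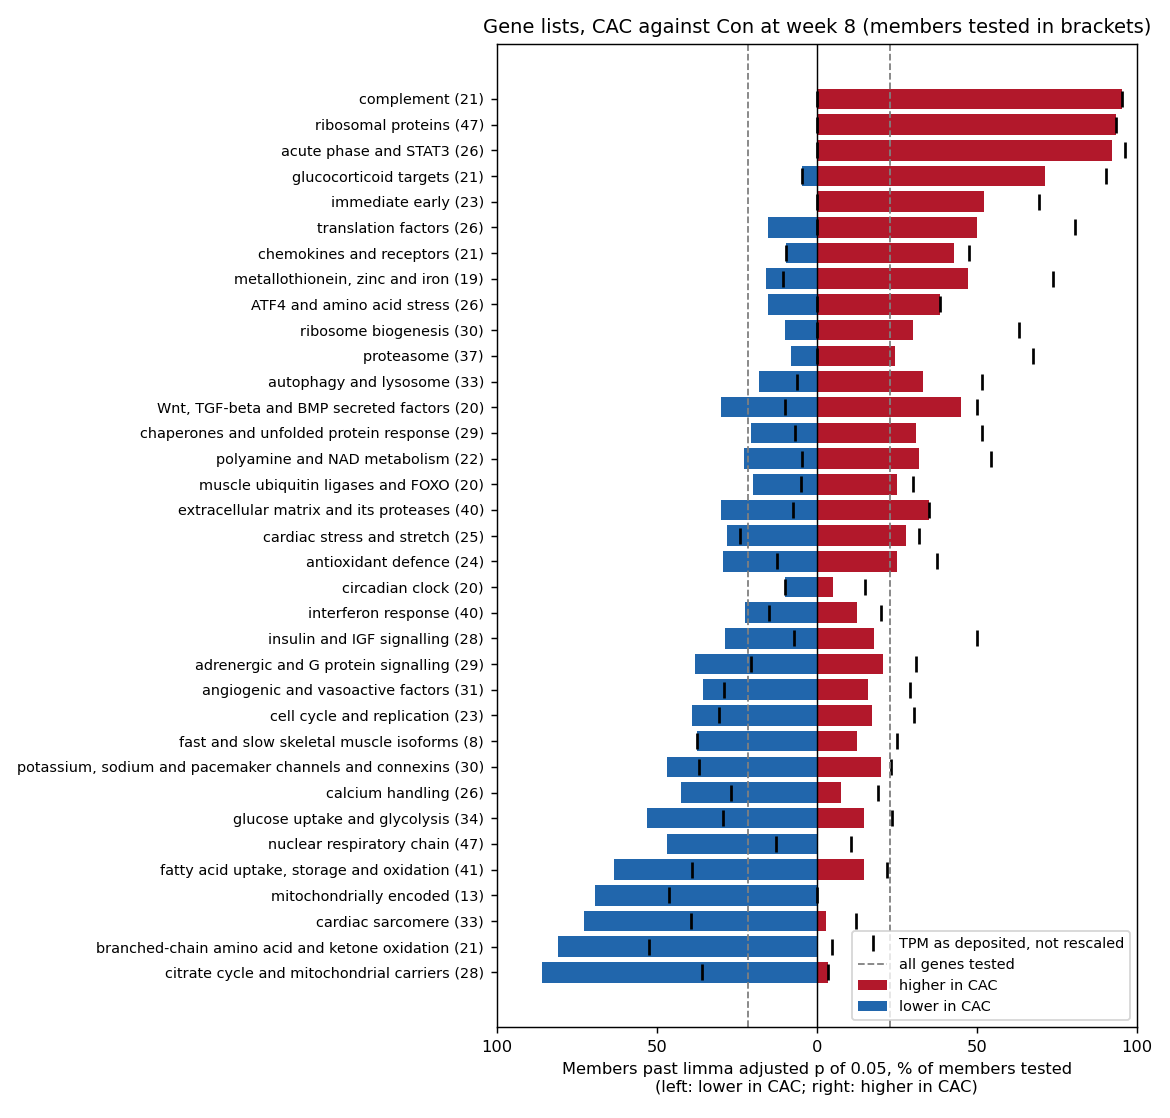
Share of the tested members of each of 35 gene lists that rose (red, to the right) or fell (blue, to the left) in CAC against Con at week 8, in percent, with black ticks for TPM as deposited and dashed lines for all genes tested (23% higher, 21.6% lower). Complement, ribosomal protein and acute phase genes reach furthest to the right, and the citrate cycle, branched-chain amino acid and sarcomere lists furthest to the left.

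Because replicate 3 lay between the groups, its place was measured per list, over the genes called without it, on a scale where the Con mean is 0% and the mean of the other 6 CAC hearts is 100%. Its median place was 34.4% over all rises and 27.4% over all falls, and it lay inside the Con range for 2613 of the 6260 genes. The lists were not shifted evenly. Nuclear respiratory chain, mitochondrially encoded, glycolysis, citrate cycle and sarcomere genes lay at -5.51%, 5.38%, 10.3%, 11.9% and 13.5%, near Con. Ribosomal protein, autophagy, complement and macrophage genes lay at 42.5%, 47.1%, 48.6% and 52.7%, the muscle ubiquitin ligases at 53% and the neutrophil markers, of which 5 were called, at 107%. The 6 called clock genes lay at 0.264%. The differences between lists rest on 1 heart and were not tested.

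**Figure D3:**
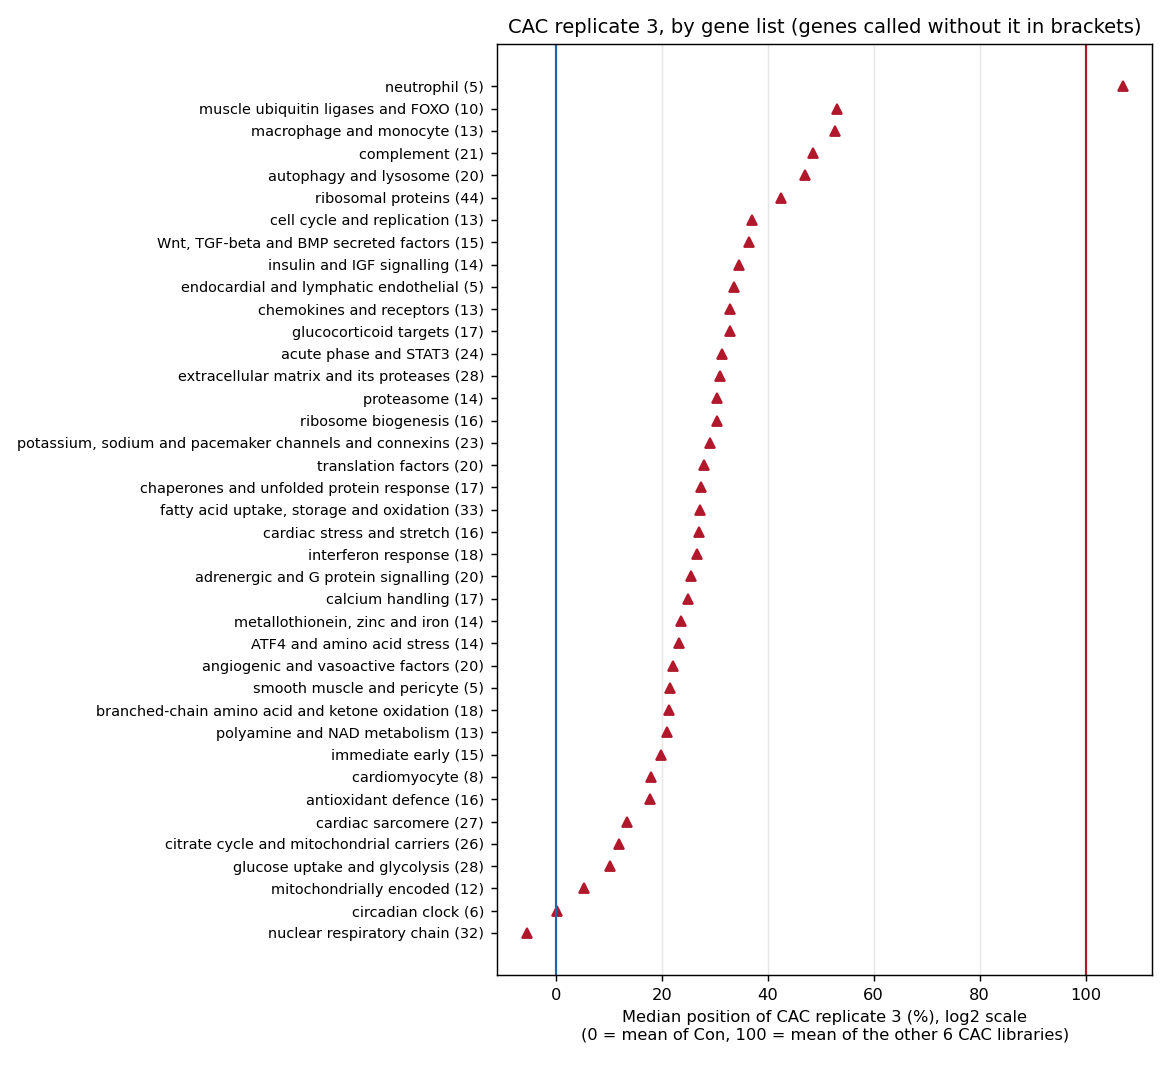
Median place of CAC replicate 3, in percent, for each list with at least 5 genes called without it. The blue line at 0 is the mean of Con and the red line at 100 the mean of the other 6 CAC hearts, on the log2 scale. The nuclear respiratory chain lies at -5.51% and neutrophil markers at 107%.

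A comparison of weeks asks which changes were larger at week 8 than at week 6. In a fit of 27 libraries, 4213 genes were called between CAC and Con at week 6 (34.1%), 2205 higher and 2008 lower. Of 5401 genes called at week 8 that were tested there, 3324 were called in the same direction at week 6 and 3 in the opposite one, and the week 6 change was 71.6% of the week 8 change in the median. These genes were chosen by their week 8 call, which by itself makes the week 6 share smaller. The share therefore cannot tell whether changes grew between the weeks. Each week has its own Con hearts. On rescaled TPM the acute phase list had 23 rises and 0 falls at week 6, complement 19 and 1, ribosomal proteins 44 and 0, and the sarcomere 1 and 13, the last turning to 7 and 5 on deposited TPM. The difference between the weeks itself was called for 1 gene (0.0081%), Atg9a, of the autophagosome membrane, at -0.31 (limma adjusted p = 0.0491), and 1123 genes (9.1%) had an unadjusted p under 0.05. Leaving out single hearts other than CAC week 8 replicate 3 gave 0 to 3 genes. Of the genes with the largest changes, the 8 with the largest difference between the weeks were Saa3 at 1.70, Mylk4 at -1.25, Acta1 at -1.09, Hp at 0.86, Ccl8 at 0.85, Mt2 at 0.84, Efnb3 at -0.82 and Klhdc8a at -0.81, and none passed the test (limma adjusted p of 0.531 to 0.723).

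Without CAC week 8 replicate 3, the difference was called for 138 genes (1.12%), 35 with a higher and 103 with a lower value at week 8. In 137 of them the difference between the weeks had the direction of the week 8 change against Con. The week 8 change is itself a part of that difference, which largely fixes such a match in advance. The match thus cannot tell whether changes grew between the weeks. Among the genes with a lower value at week 8 were Myh6, by 0.93 (limma adjusted p = 0.00862), Fhl2, by 0.98, Mylk4 by 1.70, Kcnk3 by 0.74, Ckm by 0.60 and Tnnc1 by 0.42. Myh6 averaged 4065 ± 1042 TPM in CAC at week 8 and 6700 ± 1192 TPM in CAC at week 6, against 7033 ± 642 TPM in Con at week 8 and 6578 ± 229 TPM in Con at week 6 (SD, n = 7, 5, 5 and 5). Of the sarcomere list 6 members and of the citrate cycle list 6 members had a lower difference at week 8, and 0 and 0 a higher one. Among the rises, Serpina3m and Cebpd added 1.29 and 1.21 (limma adjusted p = 0.0466 and 0.0226), and Serpina3n added 1.48 without passing the test (limma adjusted p = 0.0519). Of the acute phase list 2 members and of complement 0 members passed with a larger rise at week 8. Lcn2, Mt2 and Socs3 did not pass either, at 1.04, 1.27 and 0.22 (limma adjusted p = 0.2, 0.219 and 0.719). Which genes pass between the weeks thus depends on 1 heart.

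**Figure D4:**
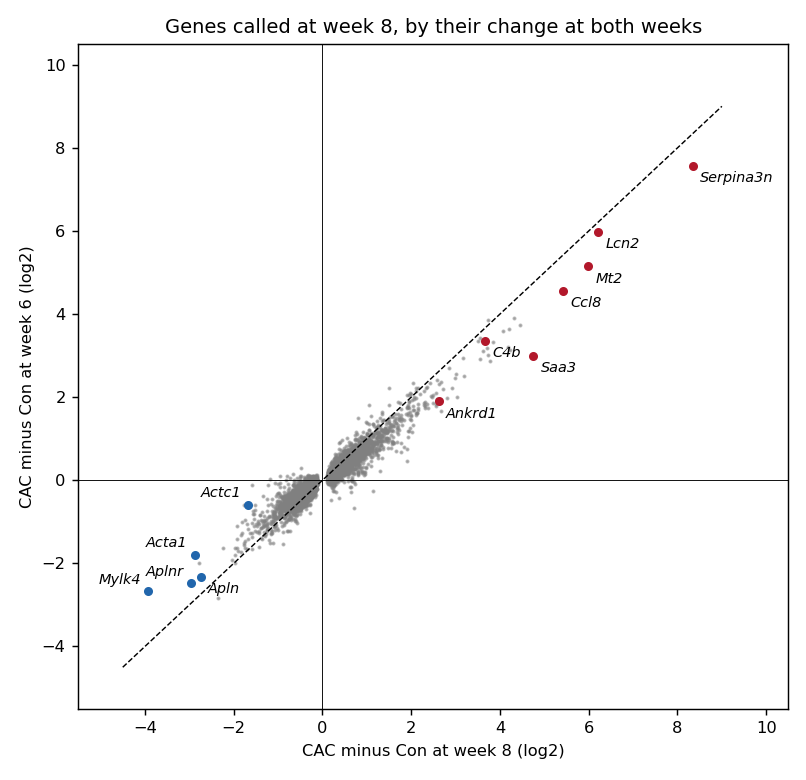
Log2 change of CAC against Con at week 8 (horizontal) and at week 6 (vertical) for the genes called at week 8 and tested at both weeks, each dot a gene, with 12 genes named in red (rises) and blue (falls). The dashed line marks equal change. Most dots lie between that line and the horizontal zero line, the week 6 change being 71.6% of the week 8 change in the median. Choosing genes by their week 8 call by itself makes the week 6 change look smaller.

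Hearts of CAC mice also differed from those of NCAC mice at week 8, which carried tumour cells without cachexia. In the same fit 6124 genes (49.6%) were called, 3181 higher and 2943 lower in CAC. The split depends on the scaling, with 6801 higher and 1043 lower on deposited TPM, and 4878 higher and 1849 lower when mitochondrial and haemoglobin genes were left out of the rescaling. This contrast shares its CAC hearts with the one against Con, so values are set side by side without a test of likeness. Serpina3n averaged 1622 ± 788 TPM in CAC and 3.34 ± 1.25 TPM in NCAC at week 8 (SD, n = 7 and 5), a log2 difference of 8.08 (limma adjusted p = 4.41e-10). Mylk4 averaged 9.34 ± 13.9 TPM in CAC and 102 ± 23.1 TPM in NCAC, a difference of -3.96 (limma adjusted p = 6.8e-08). The next largest differences among the genes with the largest changes against Con were in Lcn2 at 6.05, Ccl8 at 5.60, Mt2 at 5.34, Saa3 at 4.64, Serpina3i at 4.54, Serpina3m at 4.29 and Clca3a1 at 4.11, while Aplnr and Acta1 were at -2.35 and -3.14.

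List counts against NCAC are given as members higher and members lower in CAC. The acute phase list had 24 and 1 (25 and 0 on deposited TPM, 25 and 0 with mitochondrial and haemoglobin genes left out of the rescaling). The sarcomere list had 0 and 27 (3 and 18 on deposited TPM, 2 and 23 with mitochondrial and haemoglobin genes left out of the rescaling). The nuclear respiratory chain had 0 and 45 (1 and 19 on deposited TPM, 0 and 43 with mitochondrial and haemoglobin genes left out of the rescaling). Ribosomal proteins had 26 and 1 (46 and 0 on deposited TPM, 43 and 0 with mitochondrial and haemoglobin genes left out of the rescaling). The proteasome had 2 and 9 (26 and 0 on deposited TPM, 13 and 3 with mitochondrial and haemoglobin genes left out of the rescaling), so that its direction turns with the scaling. The interferon response had 12 and 3 (21 and 2 on deposited TPM, 15 and 2 with mitochondrial and haemoglobin genes left out of the rescaling). Slc40a1 averaged 1.85 TPM in CAC, 1.94 TPM in NCAC and 4.6 TPM in Con, and the difference between CAC and NCAC did not pass the test (-0.06, limma adjusted p = 0.842).

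**Figure D5:**
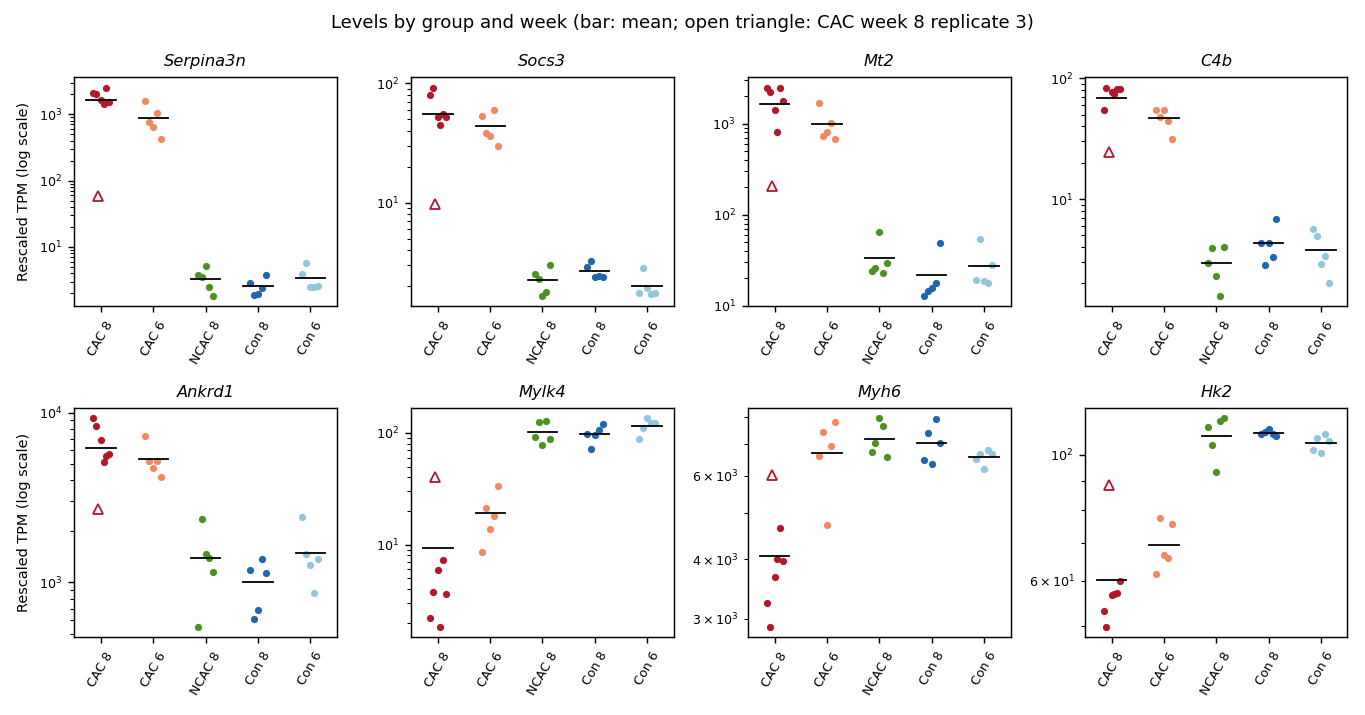
Rescaled TPM, on a log scale, of 8 genes in CAC at week 8, CAC at week 6, NCAC at week 8, Con at week 8 and Con at week 6, each circle a heart and each bar a group mean, with CAC week 8 replicate 3 as an open triangle. Serpina3n, Socs3, Mt2, C4b and Ankrd1 are high in both CAC groups and low in NCAC and Con, and Mylk4 and Hk2 show the opposite, while Myh6 overlaps between CAC and Con at week 6.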

How the data were processed

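RNA from hearts was made into stranded poly(A)-type mRNA libraries (TruSeq stranded mRNA) and sequenced on an Illumina NovaSeq, per the labels' protocols. The authors deposited 1 table of TPM for 47643 gene symbols and 62 libraries. The build was mm10, per the submitters' processing notes. Aligner, counter, annotation and whether counting used strand are not given in the sources used here, so a gene and an overlapping antisense gene cannot be told apart. How the authors shared reads among near-identical copies (Serpina3, Saa, metallothionein, Ifitm, actin, haemoglobin and ribosomal protein genes) is likewise not given. Gene positions are those of GENCODE M21, in which 45134 symbols were found. That this is the authors' annotation is assumed.

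Deposited TPM was rescaled by median-of-ratios factors over genes at 1 TPM or more in every library (10921 genes for the 12 libraries of week 8, 10622 for 27 libraries), since TPM shifts all genes when a few abundant ones change. Genes that reached 1 TPM in 5 or more libraries (12109 and 12339) were tested as log2(TPM + 1) with limma-trend, and p-values were adjusted by Benjamini-Hochberg over all genes tested. The first fit held CAC and Con at week 8. The second held CAC and Con at weeks 6 and 8 and NCAC at week 8, and gave the difference between weeks and CAC against NCAC. Software was R 4.3.3, limma 3.58.1, data.table (1.17.8), Python 3.11.15, pandas 2.3.3, numpy 2.4.6 and matplotlib 3.10.9. The procedure was tested on simulated data. Alternatives were deposited TPM, other filters and pseudocounts, rescaling without mitochondrial and haemoglobin genes, array weights, a replicate block, wider fits and leaving out each heart. Groups came from the sample labels. No columns were left without a sample. Promoters are the 250 bases before the start in RefSeq (GRCm38.p6), matched by symbol.

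The comparison and the gene lists were chosen with earlier results of these data known. Named genes are the 15 largest called rises and 15 largest called falls, the 10 largest called rises and falls in TPM among nuclear genes, up to 4 called members of each list with the smallest p, all called members of lists with 5 or fewer of them, and a fixed panel (Fbxo32, Trim63, Col1a1, Col3a1, Nppa, Nppb, Myh6, Myh7, Pdk4, Mstn). For the differences between weeks and against NCAC, the 8 largest differences among those 15 rises and 15 falls were named. Named after their values were seen were Acadm, Adrb1, Atp2a2, Bmp10, C3, C7, Casq2, Ccl2, Ccnd1, Cd163, Clec2d, Col4a1, Cs, Cxcl1, Cxcr4, Ddit4, Eef1a2, Egr1, Eno3, Fkbp5, Gas6, Gbp3, Gdf15, Gja1, Gpx3, Hamp, Hba-a2, Hcn2, Hk1, Hmox1, Igfbp3, Igtp, Il6, Il6st, Inhbb, Kcnd2, Klf9, Lpl, Lyz2, Map1lc3b, Mybpc3, Mt3, Myl4, Myl7, Nampt, Osm, Osmr, Oxct1, Pecam1, Pfkfb3, Pfkm, Pln, Pmel, Postn, Rpl3, Rpl3l, Ryr2, Serpina3h, Sgk1, Slc2a4, Slc40a1, Sln, Smyd1, Sod2, Stat3, Tfrc, Tgfbr2, Trf, Tsc22d3, Tyr, Tyrp1, Ucp3, Ulk1, Vegfa, Vsig4 and Zbtb16, and, for the difference between weeks, Atg9a, Myh6, Fhl2, Kcnk3, Ckm, Tnnc1, Cebpd, Serpina3m, Serpina3n, Lcn2 and Socs3. Results for some genes are not reported here.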

Additional observations from a re-analysis of the deposited data

Results flagged for a closer look

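Among 56 genes whose levels are given by heart or by range, or that differed between weeks, 112 groups were examined for a heart whose gap to its nearest neighbour exceeded Dixon's 95% limit, which chance passes in about 1 in 20 groups. It was passed 21 times, and in 16 of these the heart was CAC replicate 3. For 4 genes that heart lay below the other 6 CAC hearts: Lcn2 at 3.61 TPM, Clu at 430.3 TPM, Dcn at 537 TPM and Slc3a2 at 20.9 TPM. For the others it lay above them: Mylk4 at 42.5 TPM, Aplnr at 15.7 TPM, Retnla at 13.4 TPM, Apln at 3.04 TPM, Kcnip2 at 56.5 TPM, Mb at 15169 TPM, Fhl2 at 1300 TPM, Cox7a1 at 1406 TPM, Hk2 at 92.5 TPM, Ogdh at 724 TPM, Hcn2 at 13 TPM and Oxct1 at 635 TPM. In each of these genes it lay on the side of the Con hearts.

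Other CAC hearts stood out in single genes, replicate 5 with 208 TPM of Acta1, beside 23.6 to 85.3 TPM in the other 6, and replicate 2 with 23.5 TPM of Igtp, beside 9.38 to 13.2 TPM. Of the Con hearts, replicate 5 held 51.7 TPM of Mt2 and 283 TPM of Mt1, beside 13.5 to 18.6 TPM and 138 to 164 TPM in the other 4, and replicate 4 held 998 TPM of Acta1, beside 225 to 394 TPM. The change of Atg9a against Con differed between weeks 8 and 6 by -0.31 on the log2 scale by limma's test of that difference (adjusted p = 0.0491).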

How the results depend on the processing

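The number of genes called between CAC and Con at week 8 stayed within 1.5 times 5406 under every alternative tried. It was 3684 with the replicate number as a block, 4090 of 8393 with a filter at 5 TPM, 5923 of 21414 with no filter, 6559 with array weights, and 4612 to 6260 with single hearts left out, lowest without Con replicate 1 and highest without CAC replicate 3. Deposited TPM gave 5897, and 7485 (6337 higher and 1148 lower) without CAC replicate 3, a setting chosen after seeing the data. Against NCAC the count was 5453 with the block and 5560 to 6703 with single hearts left out. The difference between weeks, called for 1 gene, was called for 198 with array weights, 0 with a pseudocount of 0.1, 0 with the block, 0 with mitochondrial and haemoglobin genes left out of the rescaling, and 0 to 138 with single hearts left out, and the cause was not tested. Same-numbered CAC and Con hearts did not deviate together (r of -0.128 to 0.033 over genes for 5 pairs), so the numbers are taken as names. Of 240 called genes examined one by one, the block kept 218, deposited TPM 220 and leave-outs of single hearts 231 to 239. Genes named above that lost their call under the block were Nppa, Mb, Myl2, Tnnc1, Tnni3, Pdk4, Psmb2, Per1, Cd300lg, Prox1, Ighm, Igtp and Pfkfb3 (limma adjusted p = 0.0554 to 0.212). Psmb2 turned to 0.02 on deposited TPM and 0.04 there without CAC replicate 3, and Fbxo32, not called, to 0.17 in both, with -0.18 to 0.11 over single hearts left out; the cause was not tested. TPM keeps no read depth, so counting error could not be separated from the spread between hearts.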
